A study of Mus musculus with 15 samples.

Results

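The distal end of mouse chromosome 10, on the high-coordinate side of the Ifng bait, was examined for its contacts with that bait. Its members were all HindIII sites of the chromosome past 118.9 Mb in the build mm9, from 118900001 bp to the last site at 129991868 bp. This gave 3456 of the 41012 sites on chromosome 10, and of 823355 sites in the files. The stretch begins 1.03 Mb from the bait and ends 12.1 Mb from it. It was cut into 111 windows of 100 kb and into 12 blocks, which are 1 Mb long except the first, from 118.9 to 119 Mb, and the last, which ends with the last site.

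The method was 4C-seq, a form of chromosome conformation capture in which reads count how often other restriction sites are ligated to a chosen bait site, on 3 baits in 15 samples. Each sample of the 3T3-L1 line, a mouse fibroblast line that becomes fat cells under hormones, had 2 files, numbered 1 and 2. The groups used here were 3T3-L1 at day 0 (preadipocytes), at days 1 and 2 (intermediate stage), and at day 6 (mature adipocytes), with 2 libraries each, and a B lymphocyte line with 1 library. The days count from the addition of 1 µM dexamethasone, 0.5 mM 3-isobutyl-1-methylxanthine and 1 µg/ml insulin in 10% serum. On day 2 the medium was changed to serum and insulin, and later to serum alone. The labels repeat this protocol for the B cell line, for which no day is given. The labels name no B cell line, and nothing in them shows that numbered files came from separate cultures. The p-values therefore rest on the spread between libraries, which may be technical.

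In the nucleus, long chromosomes fold so that active, gene-rich stretches tend to meet other active stretches, and silent, gene-poor stretches tend to meet silent ones. Contacts also become rarer with distance along the chromosome. Ifng encodes interferon gamma, a cytokine of T cells and natural killer cells. In the order of protein-coding genes of the GRCm38.p6 annotation, 188 genes follow Ifng up to the chromosome end. The first 27, up to Lrig3, include Cand1, Grip1, Helb, Hmga2, Tbk1 (a kinase of antiviral signalling), Srgap1 and Usp15. The next 96 include the cell cycle kinase genes Cdk4 and Cdk2, Gli1 (a transcription factor of hedgehog signalling), Stat6 and Stat2 (transcription factors of cytokine signalling) and Erbb3 (a growth factor receptor). The last 65 begin with Olfr9 and hold the 58 olfactory receptor genes of the stretch, 4 vomeronasal receptor genes, and Neurod4 and Tespa1. That annotation is of another build than the files, so no gene is placed in a block or window here. Stretches were contrasted instead by how densely HindIII, whose recognition site is rich in A and T, cuts them in mm9.

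Values are shares of a denominator, the chromosome 10 reads over 1 Mb from the bait without the stretch from 106.5 to 108 Mb, which took 41.3% to 64.4% of the far reads in 3T3-L1 libraries and 9.38% in B cells. The denominator held 22070 to 154205 reads in the 3T3-L1 libraries and 59520 in B cells. The distal sites held 6022 to 43465 reads in 3T3-L1 and 18080 in B cells. Between 58.6% and 93.2% of all reads of a 3T3-L1 library lay on the bait site, and 71.6% in B cells. Reads may be PCR copies of one ligation, so binomial intervals cover counting error only and are too narrow.

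As a whole, the distal stretch took 20.7% to 30.8% of the denominator in the 3T3-L1 libraries, and the B cell value lay within that range. The share was 26.3% and 20.7% in the day 0 libraries, 30.5% and 22.9% on day 1, 28.2% and 22.6% on day 2, 30.8% and 26.7% on day 6, and 30.4% in B cells. B cells thus lay below 2 of the 8 libraries and above 6. The 3T3-L1 mean was 26.1% ± 3.73 (SD, n = 8), and the difference of 4.30 percentage points had p = 0.667 in a two-sided exact permutation test, whose smallest p with 1 against 8 libraries is 0.222. On every day the file numbered 1 held the larger share, with means of 28.9% ± 2.10 (SD, n = 4) for number 1 and 23.2% ± 2.49 (SD, n = 4) for number 2. The B cell share exceeded these means by 1.43 and 7.16 percentage points. The comparison depended on the denominator. With the stretch from 106.5 to 108 Mb kept in it, the share was 12.6% ± 4.15 (SD, n = 8; 7.67% to 18.1%) in 3T3-L1 and 27.5% in B cells, above all 8. Over sites more than 2 Mb from the bait it was 24.5% ± 0.999 (SD, n = 8; 23.1% to 25.7%) and 27.1%, again above all 8. Both had an exact permutation p of 0.222, the smallest possible.

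Inside the stretch the reads were distributed differently. Up to 120 Mb, the nearest part held 43.7% ± 2.47 (SD, n = 8) of the distal reads in 3T3-L1 and 29.8% in B cells, below all 8. Past 121 Mb the order was the opposite. There the sites took 11.4% ± 1.004 (SD, n = 8) of the denominator in 3T3-L1, with a range of 10.2% to 12.7%, and 16.5% in B cells (exact permutation p = 0.222, the smallest possible). Past 125 Mb lay 16.7% ± 1.22 (SD, n = 8) of the distal reads in 3T3-L1 and 25.1% in B cells. These boundaries were chosen after the values were seen. On the low-coordinate side B cells also had a larger share past the distances that the distal stretch covers. At the same distances as the whole stretch, the low side held a smaller share in B cells. These values are given below. The low side was not computed at the distances of the sites past 121 Mb alone.

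**Figure D1:**
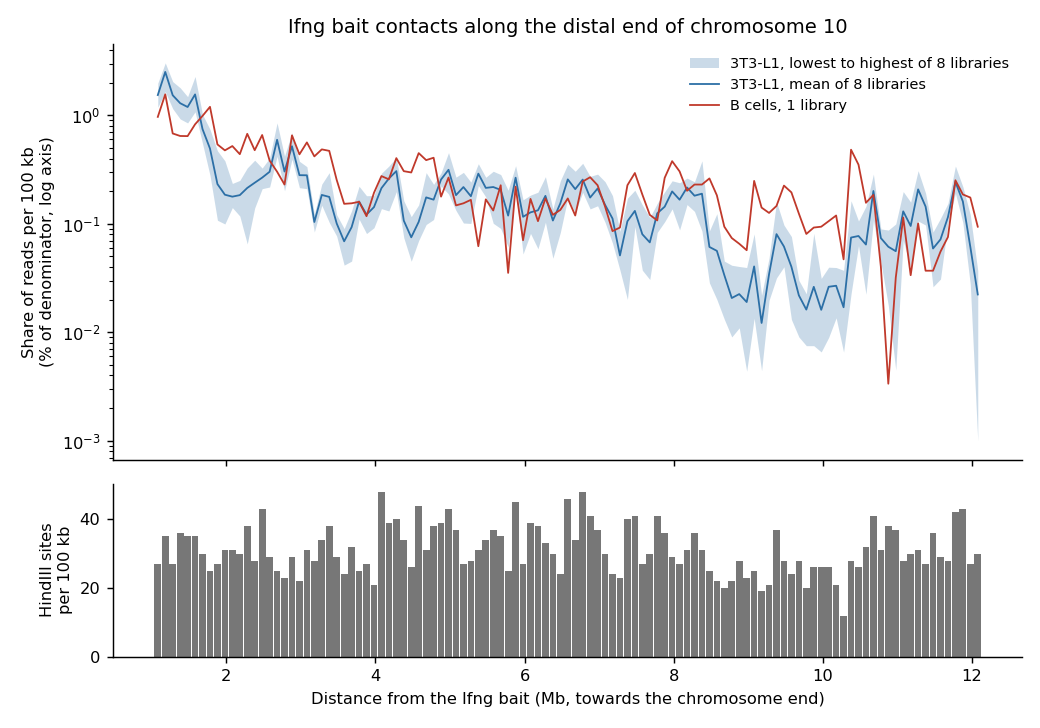
Share of reads per 100 kb window (upper panel, percent of the denominator, log axis) and HindIII sites per window (lower panel) against distance from the Ifng bait. The line and band are the mean and range of the 8 3T3-L1 libraries, with 1 library at 0 in the last window drawn at 0.001, and the other line is the B cell library. The B cell line runs below the band in the first windows and above it around 9 to 10 Mb from the bait, where the 3T3-L1 mean has its lowest value, 0.0122% of the denominator.

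Over the 111 windows, 42 differed between B cells and 3T3-L1 in edgeR's quasi-likelihood test at an adjusted p under 0.05. Of these, 34 were higher in B cells, 30.6% of the distal windows, where 14.1% of all 1148 tested windows of chromosome 10 were higher. The other 8 were lower, 7.21% against 8.8% of all windows. All 111 windows passed the filter on low counts. The median log2 difference was 0.23 over the distal windows and -0.06 over all windows tested. In 53 windows the B cell share lay above all 8 3T3-L1 libraries, 47.7% against 30.7% over the chromosome, and in 19 it lay below all 8, 17.1% against 18.6%. DESeq2 called 13 higher and 9 lower. The files numbered 2 alone, with days pooled, gave 14 higher and 11 lower. When captured sites (sites with at least 1 read) were counted, 0 of 95 distal windows passed.

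Most called windows lay in runs. Those higher in B cells included 6 from 119.6 to 120.2 Mb, 4 from 121 to 121.4 Mb and 5 from 122.2 to 122.7 Mb. Between 123 and 125 Mb none of the 20 windows was higher and 2 were lower. From 126.3 to 128.4 Mb, 14 windows were higher, in runs of 2 to 4, and none was lower. From 128.7 Mb on, 4 windows were lower, and the last 2 before the chromosome end were higher.

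By block, 9 of 12 passed (75%, against 54.7% of all 128 tested pieces of chromosome 10), 7 higher (58.3%, against 30.5%) and 2 lower (16.7%, against 24.2%). The B cell share lay above all 8 3T3-L1 libraries in the same 7 blocks, where 41.4% of all pieces did so, and below all 8 in the same 2, where 25.8% did. With captured sites, 2 blocks passed, those at 126 and 127 Mb.

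The block nearest to the bait, from 118.9 to 119 Mb, was lower in B cells. Its share was 1.66% and 1.25% on day 0, 1.98% and 1.27% on day 1, 1.72% and 1.19% on day 2, 1.80% and 1.44% on day 6, and 0.968% in B cells. The log2 difference was -0.76 ± 0.21 (SE; edgeR adjusted p = 0.00326), but 0.05 when captured sites were counted. The block from 119 to 120 Mb, which held the most reads in both lines, had 9.93% ± 1.96 (SD, n = 8) in 3T3-L1 and 8.08% in B cells, inside the 3T3-L1 range of 6.96% to 12.6%. It did not pass (log2 difference -0.38 ± 0.36, SE; edgeR adjusted p = 0.379). That block was split within itself: the window from 119.0 to 119.1 Mb had 2.51% ± 0.521 (SD, n = 8) in 3T3-L1 and 1.56% in B cells. This was below all 8 but did not pass (log2 difference -0.87 ± 0.54, SE; edgeR adjusted p = 0.236). The window from 119.6 to 119.7 Mb had 0.494% ± 0.163 (SD, n = 8) and 1.20% (log2 difference 1.13 ± 0.32, SE; edgeR adjusted p = 0.00385).

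Blocks at 120, 121 and 122 Mb were higher in B cells. At 120 Mb the share was 3.18% ± 0.595 (SD, n = 8) in 3T3-L1 and 4.82% in B cells (log2 difference 0.51 ± 0.20, SE; edgeR adjusted p = 0.0262). This call was lost without the day 0 file numbered 1 (adjusted p = 0.112) and without the day 2 file numbered 2 (adjusted p = 0.15). It was also lost without the top site of each window, with the files numbered 1 only and with library sizes fixed to the denominator (adjusted p = 0.0589, 0.0814 and 0.0705). At 121 Mb the share was 1.37% ± 0.146 (SD, n = 8) and 2.68%, or 1.96 times as much (log2 difference 0.87 ± 0.16, SE; edgeR adjusted p = 4.86e-05). At 122 Mb it was 1.95% ± 0.264 (SD, n = 8) and 3.10% (log2 difference 0.57 ± 0.17, SE; edgeR adjusted p = 0.00478, and 0.0509 without the day 2 file numbered 2).

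The next part did not follow. At 123 Mb the block had 2.13% and 1.98% on day 0, 2.22% and 1.74% on day 1, 2.09% and 1.72% on day 2, 1.91% and 1.85% on day 6, and 1.41% in B cells. B cells were thus below every 3T3-L1 library (log2 difference -0.57 ± 0.19, SE; edgeR adjusted p = 0.00881). The call was lost with library sizes fixed to the denominator (adjusted p = 0.175). Within it, the window from 123.2 to 123.3 Mb had 0.290% ± 0.0483 (SD, n = 8) in 3T3-L1 and 0.0622% in B cells, which was 54 to 508 reads per 3T3-L1 library and 37 in B cells. At 124 Mb the lines did not differ beyond their spread, at 1.83% ± 0.212 (SD, n = 8) and 1.71% (log2 difference -0.20 ± 0.18, SE; edgeR adjusted p = 0.365).

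Past 125 Mb the B cell share was higher in 4 blocks in a row. It was 2.06% at 125 Mb against 1.18% ± 0.178 (SD, n = 8), and 1.65% at 126 Mb against 0.841% ± 0.161 (SD, n = 8). Their log2 differences were 0.71 ± 0.17 and 0.88 ± 0.19 (SE; edgeR adjusted p = 0.000721 and 0.00017).

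The block from 127 to 128 Mb, 9.13 Mb from the bait, had the largest difference of the 12. Its share was 0.296% and 0.233% on day 0, 0.377% and 0.374% on day 1, 0.258% and 0.320% on day 2, 0.349% and 0.478% on day 6, and 1.33% in B cells (95% Wilson interval 1.24 to 1.43). These are 77 to 398 reads per 3T3-L1 library and 792 in B cells. The groups did not overlap, and the B cell value was 3.97 times the 3T3-L1 mean. The log2 difference was 1.91 ± 0.22 (SE; edgeR adjusted p = 1.25e-08), and under the alternatives tried it ran from 1.01, with captured sites, to 2.14. Of its 10 windows, 8 passed as higher and 9 lay above all 8 3T3-L1 libraries. The difference was not carried by single sites, since the site with the most reads held 3.28% of the block's reads in B cells and 12.1% on average in 3T3-L1.

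In 3T3-L1 this block was a low point. Its mean share was 0.336%, against 0.841% and 0.783% in the adjoining blocks at 126 and 128 Mb. In B cells it was also lower than these, at 1.33% against 1.65% and 1.53%. Per HindIII site, its reads were set against the mean of the blocks at 125 and 129 Mb, which do not adjoin it. The ratio was 0.263 to 0.531 in the 8 3T3-L1 libraries and 1.07 in B cells. The ratio per site to the adjoining blocks was not computed. Of its 255 sites, 6 (2.35%) were captured in all 9 libraries, 82 (32.2%) in none, and 13 (5.10%) in B cells only. Over the whole stretch these shares were 14.6%, 21.3% and 2.08%. Such counts move with the depth of the libraries. No site of the block was captured in all 8 3T3-L1 libraries and missed in B cells. Only the 6 sites captured in all 9 libraries could have shown such a loss. With so few of them, the absence of a loss does not separate the lines.

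At 128 Mb B cells had 1.53% and 3T3-L1 0.783% ± 0.124 (SD, n = 8) (log2 difference 0.87 ± 0.19, SE; edgeR adjusted p = 0.0002). This block held both the window with the smallest p of the stretch and the most strongly depleted one. From 128.2 to 128.3 Mb the reads were 9 to 113 per 3T3-L1 library and 287 in B cells, or 0.0747% ± 0.0419 (SD, n = 8) and 0.482% (log2 difference 2.61 ± 0.36, SE; edgeR adjusted p = 2.69e-10). From 128.7 to 128.8 Mb there were 4 to 135 reads per 3T3-L1 library and 2 in B cells, a share of 0.0615% ± 0.0231 (SD, n = 8) and 0.00336%. The log2 difference there was -4.20 ± 0.99 (SE; edgeR adjusted p = 0.000461). It rests on few sites, since 63.2% of the window's 38 sites were captured in no library of any bait. In 3T3-L1 the site with the most reads held 39.5% of the window's reads on average. The last block, from 129 Mb, did not pass, with 1.18% ± 0.127 (SD, n = 8) in 3T3-L1 and 1.05% in B cells (log2 difference -0.27 ± 0.19, SE; edgeR adjusted p = 0.22). In 3T3-L1 it held more reads than the 3 blocks before it, although it lies farther from the bait.

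**Figure D2:**
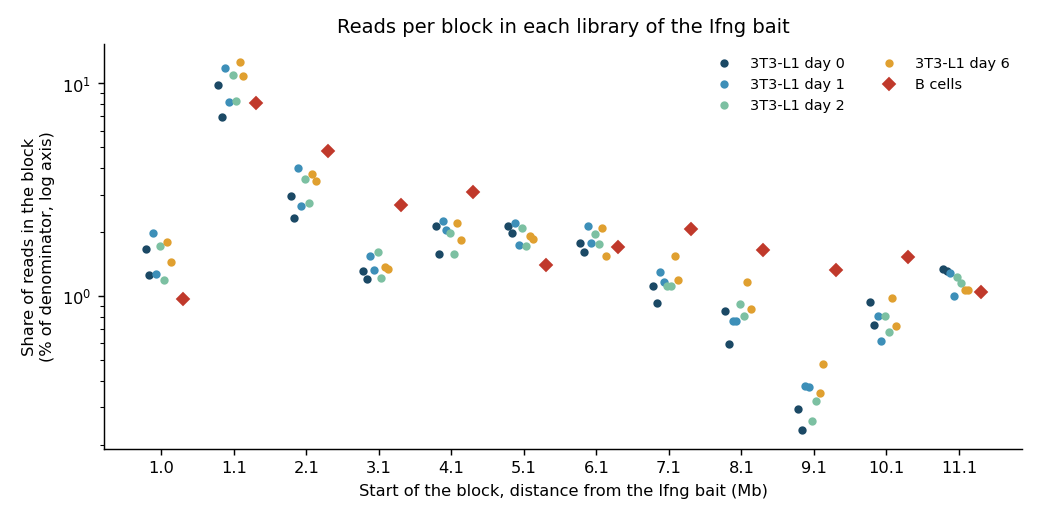
Share of reads (percent of the denominator, log axis) in each of the 12 blocks, by the distance of the block's start from the Ifng bait. Each dot is 1 3T3-L1 library, coloured by day, and each diamond is the B cell library. The diamond at 9.1 Mb, the block from 127 Mb, stands at 1.33% above dots from 0.233% to 0.478%.

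The remaining windows named by the rule were of the same kind. Those higher in B cells began at 126.9 Mb (log2 difference 2.65), 122.4 Mb (1.92), 128.3 Mb (2.00) and 121.0 Mb (1.80). Those lower in B cells began at 129.2 Mb (-2.12), 123.6 Mb (-1.92) and 120.5 Mb (-1.16), and the last of these had a log2 difference of 0.02 when captured sites were counted. The largest adjusted p of these 7 was 0.0187 (edgeR). The windows with the highest shares lay nearest to the bait. In 3T3-L1 the leading 5 all began between 118.9 and 119.4 Mb, with 1.29% to 2.51% each. In B cells the window from 119.0 Mb also led, followed by that from 119.6 Mb with 1.20% and that from 119.5 Mb with 0.988%. The single site with the highest share in B cells, at 119161945 to 119161950 bp, had 115 reads there (0.193%) and a 3T3-L1 mean of 0.190% ± 0.0572 (SD, n = 8). The leading site in 3T3-L1, at 119074988 to 119074993 bp, had 0.193% ± 0.0740 (SD, n = 8) and 0.0722% in B cells.

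The same blocks were examined by the share of their sites that was captured. Over the stretch 37.5% to 64.8% of sites were captured in a 3T3-L1 library and 55.7% in B cells. This share moves with depth, so each library was also thinned, by expectation, to the 22070 reads of the shallowest denominator. It was then 38.4% ± 2.17 (SD, n = 8) in 3T3-L1 and 44.6% in B cells, above all 8. The thinned share of the block at 127 Mb was 16.3% ± 2.68 (SD, n = 8) in 3T3-L1 and 39.4% in B cells. At 126 Mb it was 27.9% ± 2.92 (SD, n = 8) and 43.2%, and at 121 Mb 38.9% ± 3.37 (SD, n = 8) and 51.7%. At 123 Mb the order was turned, with 43.1% ± 4.20 (SD, n = 8) in 3T3-L1 and 34.0% in B cells. Of all 3456 sites, 504 were captured in all 9 libraries and 736 in none. Sites captured in no library made up 7.37% of the block from 119 Mb and 36.8% of the last one.

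HindIII sites were sparse in the block with the largest difference. Over the 126 full blocks of chromosome 10 the median was 328 sites per Mb, and the blocks at 127 and 126 Mb, with 255 and 263, ranked 6 and 8 from the lowest. The distal windows were split into 38 site-poor ones (12 to 27 sites), 37 in the middle (28 to 34) and 36 site-rich ones (35 to 48). Of the site-poor windows 16 passed as higher in B cells and 4 as lower, with a median log2 difference of 1.16 over all 38. For the middle class the counts were 12 and 3 and the median 0.59, and for the site-rich class 6 and 1 and -0.18. Across the 111 windows Spearman's correlation of the log2 difference with the number of sites was -0.34. This is a description, since neighbouring windows share libraries and base composition.

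Per HindIII site, site-poor windows had fewer reads than site-rich ones in 3T3-L1 and more in B cells. The log2 ratio was -0.175 and -0.109 on day 0, -0.026 and -0.234 on day 1, -0.183 and -0.190 on day 2, -0.082 and -0.103 on day 6, and 0.241 in B cells. All 8 3T3-L1 libraries were thus below 0 and B cells above. The difference from the mean of -0.138 ± 0.0689 (SD, n = 8) was 0.379, with the smallest p possible (two-sided exact permutation p = 0.222). Leaving out 1 library gave 0.365 to 0.395. Site-poor windows also lay farther from the bait, at a median of 7.78 Mb against 5.93 Mb for site-rich ones, and the part of distance in the ratio within a library was not tested. Over windows more than 3 Mb from the bait the difference between the lines was 0.643. Within the files numbered 1 it was 0.358 and within those numbered 2 it was 0.400.

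The lines stood apart in the farther windows. Up to 123.9 Mb the log2 ratio was 0.120 to 0.333 in 3T3-L1 and 0.290 in B cells, within that range. Past it the 3T3-L1 libraries had -0.728 and -0.878 on day 0, -0.644 and -0.795 on day 1, -0.605 and -0.711 on day 2 and -0.431 and -0.483 on day 6, and B cells had 0.477. Both day 6 libraries lay above the 6 others of that line, by 0.346 over the day 0 mean, with p = 0.333, the smallest that 2 against 2 libraries allow (two-sided exact permutation test). In these farther windows day 6 stood above day 0 in each file number, by 0.297 for number 1 and 0.395 for number 2. Up to 123.9 Mb the day 6 difference from day 0 was -0.029. Over the whole stretch, which was the planned comparison, it was 0.0497 (two-sided exact permutation p = 0.333). The split into a nearer and a farther part was not planned. The farther windows include the 2 blocks whose sparse HindIII sites were described above. Both blocks had a larger share in B cells, and there both day 6 libraries lay above both day 0 libraries. The ratio was not computed without these blocks, so whether the contrast extends beyond them was not tested. Whether genes are dense in the site-poor windows was not examined.

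**Figure D3:**
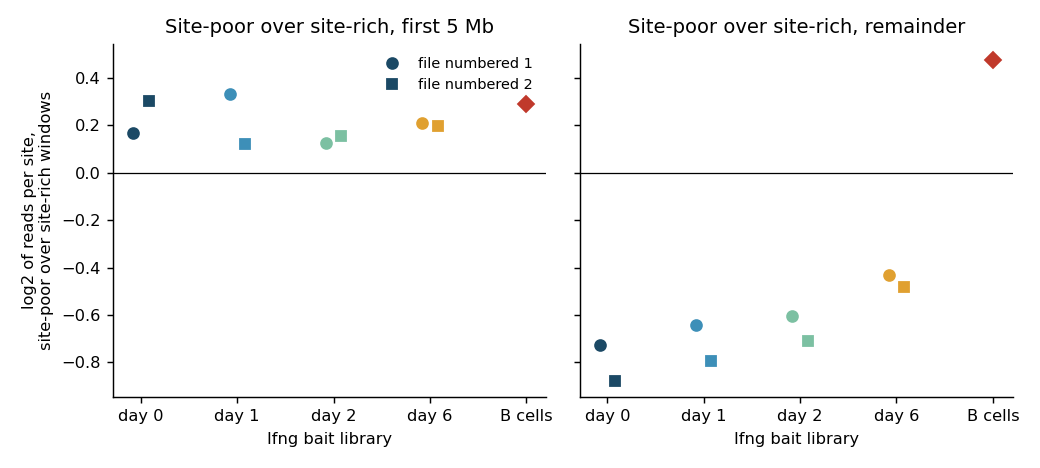
Log2 ratio of reads per HindIII site in site-poor over site-rich windows, for each Ifng library, in the first 5 Mb of the stretch (left) and the remainder (right). Circles and squares are the 3T3-L1 files numbered 1 and 2, and the diamond is the B cell library. In the right panel the 3T3-L1 libraries lie from -0.878 to -0.431 and B cells at 0.477.

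The time course asked whether these contacts changed as 3T3-L1 cells became fat cells. In edgeR 0 of the 111 windows passed on day 1, 2 or 6 against day 0, where 0, 0 and 0.0871% of all windows did. At an unadjusted p under 0.05 there were 11 windows on day 1 (9.91%, against 6.97% of all windows), 3 on day 2 (2.70%, against 5.14%) and 14 on day 6 (12.6%, against 8.71%). DESeq2 called 0 on each day. The windows with the smallest p, which did not pass, began at 119.7 Mb on days 1 and 2 (higher, edgeR adjusted p = 0.0541 and 0.503) and at 120.1 Mb on day 6 (higher, 0.111). On the lower side they began at 129.0 Mb on day 1 (0.4), 123.1 Mb on day 2 (0.966) and 129.2 Mb on day 6 (0.386).

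The window from 119.7 to 119.8 Mb had 0.108% and 0.128% on day 0, 0.471% and 0.189% on day 1, 0.233% and 0.212% on day 2, 0.227% and 0.292% on day 6, and 0.539% in B cells. All 6 later libraries were above both day 0 libraries, with the highest on day 1. Its day 1 difference was near the threshold: it passed in 4 of the 8 settings that leave out 1 library and in 4 of 7 others, with edgeR adjusted p from 0.00179, without the day 1 file numbered 2, to 0.763, without the day 0 file numbered 1, in the former. The share of the whole stretch was higher than on day 0 by 3.19, 1.87 and 5.21 percentage points on days 1, 2 and 6 (two-sided exact permutation p = 0.667, 0.667 and 0.333). Within the files numbered 1 the differences were 4.17, 1.87 and 4.47 points, and within those numbered 2 they were 2.22, 1.87 and 5.95 points. Leaving out 1 file also unbalances the file numbers. Without the day 1 file numbered 1 the day 1 difference was -0.583. Without the day 0 file numbered 2 or the day 2 file numbered 1 the day 2 difference was -0.938 or -0.940.

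By block 0 of 12 passed on days 1 and 2, where 1.56% of all pieces passed on each day, and 2 and 0 had an unadjusted p under 0.05 (against 17.2% and 13.3% of all pieces). On day 6, 0 of 12 passed, where 8.59% of all pieces passed, 5.47% as higher and 3.12% as lower. An unadjusted p under 0.05 was found for 4 blocks (33.3%, against 18%), all higher on day 6. Both day 6 libraries lay above both day 0 libraries in 6 of the 12 blocks (24.2% of all pieces) and below in 2 (27.3% of all pieces). The 6 were those at 119, 120, 121, 125, 126 and 127 Mb. At 127 Mb the day 0 mean was 0.265% ± 0.0440 (SD, n = 2) and the day 6 mean 0.413% ± 0.0913 (SD, n = 2), which differed by 0.63 ± 0.26 on the log2 scale (SE; edgeR adjusted p = 0.159). At 126 Mb the means were 0.724% ± 0.182 and 1.02% ± 0.204 (SD, n = 2 each), with 0.47 ± 0.20 (SE; edgeR adjusted p = 0.159). In the last block the day 0 mean, 1.33% ± 0.0288, was above that of day 6, 1.07% ± 0.00117 (SD, n = 2 each), with -0.32 ± 0.18 (SE; edgeR adjusted p = 0.316). When the site with the most reads was left out of each window, 4 blocks passed as higher on day 6, those at 120, 125, 126 and 127 Mb (edgeR adjusted p = 0.0239, 0.0321, 0.0167 and 0.00929). With the file number as a term in the fit, a replicate block, 4 blocks also passed as higher, those at 119, 120, 125 and 126 Mb (edgeR adjusted p = 0.00105, 0.000408, 0.0309 and 0.0329), and the block at 127 Mb had an adjusted p of 0.105.

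The low-coordinate side of the bait gave a comparison at equal distances. Past 2 Mb from the bait, leaving out the stretch from 106.5 to 108 Mb and its mirror image, the distal side had 0.921 to 1.14 times the reads of the other side in 3T3-L1, with a mean of 1.03 ± 0.0706 (SD, n = 8). In B cells it had 1.26 times, above all 8 (two-sided exact permutation p = 0.222, the smallest possible). With the reads from 1 to 2 Mb included, the ratio was 0.646 ± 0.175 (SD, n = 8) in 3T3-L1, with 0.786 for the files numbered 1 and 0.506 for those numbered 2, and 1.11 in B cells. At the same distances the low side took 39.8% ± 5.48 (SD, n = 8) of the denominator in 3T3-L1 and 25.7% in B cells, below all 8. Past these distances the low side took 32.5% ± 2.54 (SD, n = 8; 28.9% to 35.3%) in 3T3-L1. In B cells it took 43.4% there, above all 8.

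The baits at Pparg and Lpin1, on chromosomes 6 and 12, gave a readout of the same sites that the Ifng reads do not enter. There the captured share of a block was set against that of chromosomes other than 6, 10 and 12 in the same library. The block at 127 Mb, least captured of the 12 by Ifng in 3T3-L1, was the most captured of the 12 by both other baits in both lines. Its multiple in 3T3-L1 was 2.89 ± 1.27 with the Pparg bait and 2.75 ± 0.453 with the Lpin1 bait (SD, n = 8 each). The B cell library had 4.08 with Pparg, inside the 3T3-L1 range of 0.933 to 4.93, and 1.69 with Lpin1, below the 3T3-L1 range of 2.03 to 3.62. Before this division, the captured share of the block for Pparg was 5.54% ± 4.44 in 3T3-L1 and 3.92% in B cells. For Lpin1 it was 4.36% ± 2.27 and 5.49% (SD, n = 8 each). The order of the lines was thus opposite to that of the multiples for both baits. By the multiple, the block at 126 Mb followed for Lpin1 in 3T3-L1, at 2.18 ± 1.11 (SD, n = 8). The blocks at 123 and 124 Mb were captured little in 3T3-L1, at 0.194 ± 0.228 and 0.354 ± 0.393 (SD, n = 8) for Pparg and 0.352 ± 0.231 and 0.340 ± 0.281 (SD, n = 8) for Lpin1.

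Over the whole stretch the multiples of the 2 baits moved in opposite directions between the lines. Pparg had 0.794 ± 0.0566 (SD, n = 8) times the other chromosomes in 3T3-L1 and 1.63 in B cells, above all 8. Lpin1 had 0.941 ± 0.135 (SD, n = 8) and 0.649, below all 8. Whether these differences differ was not tested. The divisor differed between the lines. On the other chromosomes the captured share was 2.06% in 3T3-L1 and 0.961% in B cells for Pparg, and 1.68% and 3.25% for Lpin1. The captured share of the stretch itself was 1.64% in 3T3-L1 and 1.56% in B cells for Pparg. For Lpin1 it was 1.58% and 2.11%, so without the divisor it was higher in B cells. Few sites lie behind these values: of the sites at 127 Mb, 5.54% were captured per 3T3-L1 library for Pparg and 4.36% for Lpin1.

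**Figure D4:**
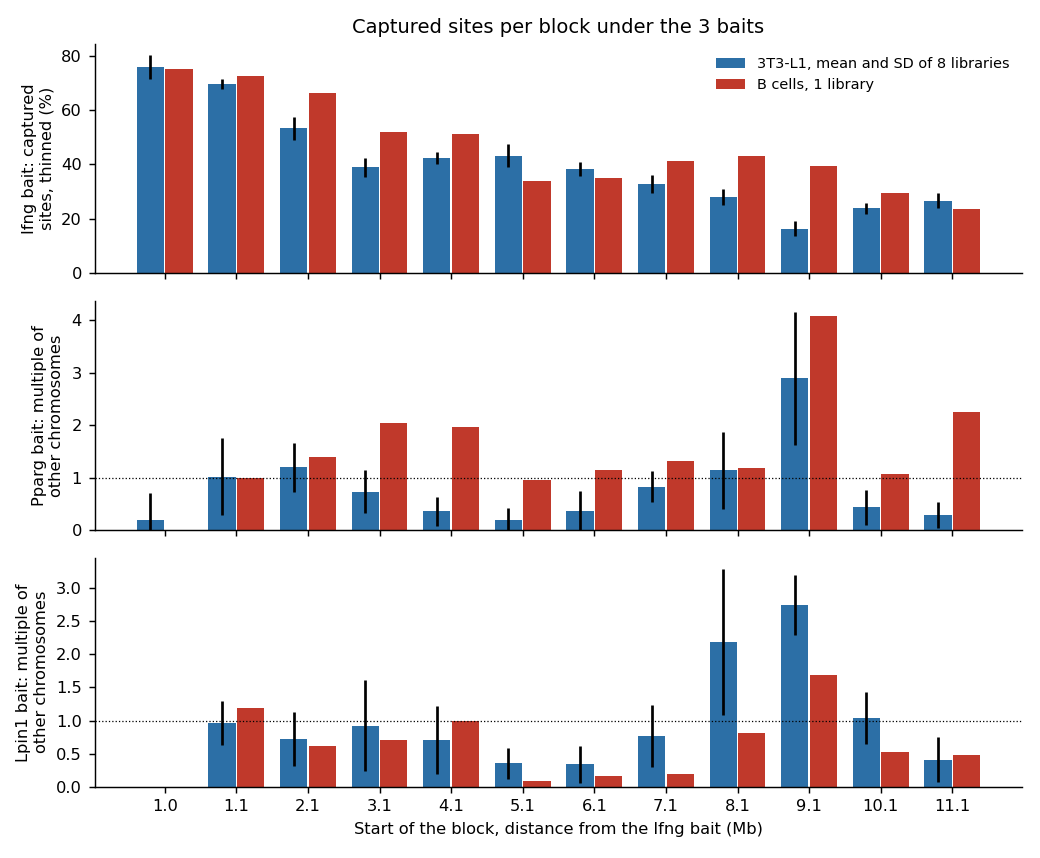
Captured sites in the 12 blocks, by distance of the block's start from the Ifng bait: for Ifng as percent of sites after thinning to equal denominator reads (upper panel), for Pparg and Lpin1 as a multiple of the share on other chromosomes (middle and lower panels, dotted line at 1). Bars are the mean and SD of the 8 3T3-L1 libraries and the single B cell library. At 9.1 Mb the Ifng bar of 3T3-L1 is the lowest of its panel, 16.3%, and the Pparg and Lpin1 bars are the highest of theirs, 2.89 and 2.75.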

How the data were processed

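The authors deposited 27 files of raw read counts, whole numbers of reads at each HindIII site, with no normalisation. Per the submitters' processing notes, reads were aligned with Bowtie (no version given) to mm9; read filters and duplicate removal are not given in the sources used here. Per the labels' protocols, fixation was in 2% formaldehyde (10 min). Positions are 1-based.

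Sites within 10 kb of the bait site (chromosome 10, 117870359 to 117870364 bp) were left out of the fits. Counts were summed over windows of 100 kb and blocks of 1 Mb. All chromosome 10 windows were fitted together (edgeR 4.0.16, R 4.3.3, robust quasi-likelihood fit, TMM, filterByExpr, 5 groups), with Benjamini-Hochberg adjustment within a contrast over all windows tested. The B cell library is assumed to vary like the 3T3-L1 libraries. The fit was tested on simulated counts, in which every library was drawn with the same spread. That test therefore cannot check the assumption about the B cell library. Exact permutation tests are two-sided and double the smaller tail (SciPy 1.17.1). Wilson intervals are at 95%.

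The file numbers entered no main fit. Reads within 1 Mb of the bait and from 106.5 to 108 Mb were left out of the denominator of shares. Named windows: up to 5 per direction and contrast by smallest p among those passing, else the 1 with the smallest p, and the 5 with the highest share in each line; every block is named. Members, windows and lists were chosen with earlier results of these data known. The planned contrast of gene-dense and gene-poor blocks needs an mm9 annotation, so site density took its place.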

Additional observations from a re-analysis of the deposited data

How the results depend on the processing

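Alternatives kept the direction of most results. The 42 distal windows called between the lines became 22 with DESeq2, 0 with captured sites, 25 with the files numbered 2 only and 15 of 23 windows of 500 kb, and 33 to 44 with 1 library left out. The 9 blocks became 2 with captured sites, and 7 to 9 with 1 library left out. For day 1 the count of 0 windows became 1 without the top site of each window, with the replicate block, with TMM without the excluded stretch and the bait flanks, with no filter and with windows of 200 or 500 kb, and was 0 to 1 with 1 library left out. For day 6 the count of 0 windows became 1 with the replicate block, and the count of 0 blocks became 4 with the replicate block and 4 without the top site. The replicate block gave 50 windows and 10 blocks between the lines. Over blocks, deviations of same-numbered files were correlated between day 0 and each later day (r from 0.258 to 0.403). Between later days r was 0.0424 to 0.127. Over windows r was -0.0299 to 0.0154 for the 6 pairs of days. As not every r was over 0.1 and the labels give no shared culture, the numbers were not taken to pair the samples. With 1 library left out, the day 1 and day 2 shares of the stretch differed from day 0 by -0.583 to 6.97 and -0.940 to 4.68 percentage points, and the day 6 share by 2.40 to 8.01. The B cell share exceeded 3T3-L1 by 0.754 to 14.9 points over the other alternatives. Captured sites reversed the window from 120.5 Mb (0.0183) and the first block (0.0496). The causes were not tested. Of 617 single-window and single-block comparisons, 565 kept their direction and their side of the threshold. Settings that leave a day with 1 library assume that it varies like the others. Alternatives with pooled days, single file numbers or thinning were chosen after seeing the data. Windows past 126 Mb rest on few reads in 3T3-L1, which limits the precision there.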
